A study of Oryctolagus cuniculus with 24 samples.

Results

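Rabbit corneal keratocytes given TGF-β1 were compared with the same kind of cells kept without it. The comparison took the 8 libraries of the TGF-β1 condition and the 8 of the serum-free condition, 16 of the 24 in the series, by their labelled condition alone, and all 13308 of the 23428 genes in the table that had enough counts to be tested. The cells were primary keratocytes, which populate the stroma of the cornea, plated at first passage on collagen-coated glass and cultured for 6 days in defined serum-free medium. In the TGF-β1 condition, which the submitters call myofibroblasts, the medium carried 5 ng/mL TGF-β1 from day 1 and was renewed with it on day 3, whereas the serum-free condition, called keratocytes, received plain serum-free medium on both days. All 16 cultures were thus free of serum. The remaining 8 libraries, from cells given 10% fetal bovine serum on day 3, entered the statistical model for its estimate of the spread. They also entered the filter that chose the genes tested and the calculation of library sizes. With the 16 libraries alone, 12802 genes passed the filter. The labels do not say whether the 8 libraries of a condition came from separate animals or separate cultures, so the p-values measure the spread between these libraries, which may be technical.

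TGF-β is secreted in a latent form, tied to its own propeptide and to latent TGF-β binding proteins, and is released at the cell surface by integrins or thrombospondin. The active dimer joins a type II and a type I receptor kinase, which phosphorylate SMAD2 and SMAD3. These enter the nucleus with SMAD4 and switch genes on, among them inhibitors such as SMAD7 that close a feedback loop. In the cornea keratocytes are quiet, neural crest-derived cells that keep the stroma transparent, and TGF-β released after injury is known to turn them into contractile, matrix-secreting myofibroblasts that can leave a scar.

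The libraries held 17151397 to 21540864 counts in serum-free medium and 15410285 to 20911192 with TGF-β1. The largest axis of variation over the 16 libraries (74.5% of the variance) separated the conditions, and the next (11.6%) separated replicates 1 to 4, whose libraries carry the numbers 5 to 8, from replicates 5 to 8, numbered 9 to 12. What these numbers mark is not given in the labels, and the sets of libraries are compared at the end of this section. Levels below are counts relative to library size (CPM), with edgeR's TMM sizes, given as the lowest and highest of 8 libraries with their median. Changes are log2 fold changes ± SE, TGF-β1 minus serum-free, and "rose" and "fell" are used only at a Benjamini-Hochberg adjusted p below 0.05 in edgeR's quasi-likelihood test. In bulk RNA, fewer cells of a type and less RNA per cell cannot be told apart.

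The labelled cell states were checked against 4 marker genes. ACTA2, smooth muscle α-actin and the defining protein of myofibroblasts, lay at 0.353 to 6.93 CPM (median 2.71) in serum-free medium and at 115 to 403 CPM (median 202) with TGF-β1, a rise of 6.29 ± 0.48 (adjusted p = 1.01e-11). Its gene lies on chromosome 18 from 36853676 to 36870691 in the deposited table (the build behind these coordinates is not given in any source used), and reads may be shared with the near-identical actins. The actin-binding protein transgelin, TAGLN (chromosome 1, 99217021 to 99221429), went from 0.337 to 7.76 CPM (median 3.08) to 279.8 to 627 CPM (median 352), a rise of 6.91 ± 0.41 (adjusted p = 6.71e-14). The lowest TGF-β1 library was far above the highest serum-free library for both genes. LTBP2, a matrix protein of the latent TGF-β binding family that associates with elastic fibres (chromosome 20, 30505274 to 30592928), was at 2.25 to 5.45 CPM (median 3.1) and reached 1646 to 2267 CPM (median 1997), a rise of 9.16 ± 0.22 (adjusted p = 1.63e-21). KERA encodes keratocan, the keratan sulfate proteoglycan that marks keratocytes (chromosome 4, 70262575 to 70269568). It lay at 7534 to 10873 CPM (median 8052) in serum-free medium and at 253 to 390.0 CPM (median 278) with TGF-β1, so that it fell by 4.91 ± 0.25 on the log2 scale (adjusted p = 2.58e-15) without reaching 0 in any library. Per transcript length, the TGF-β1 libraries held 355 ± 117 FPKM of TAGLN, 245 ± 30.3 of LTBP2, 174 ± 93.4 of ACTA2 and 147 ± 22.4 of KERA (mean ± SD, n = 8), against a serum-free level of 4423 ± 706 FPKM for KERA.

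**Figure D1:**
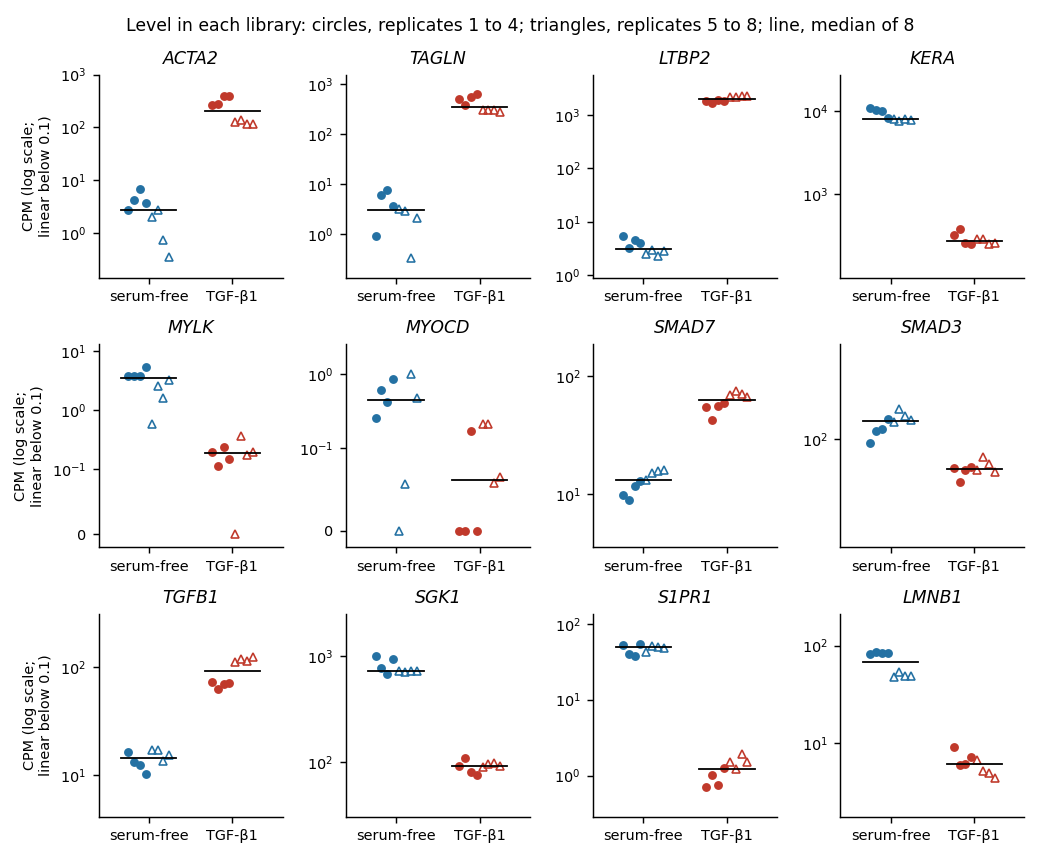
Level of 12 genes in each of the 16 libraries (CPM, log scale, linear below 0.1), with the median of each condition as a line. For 11 of the 12 genes every TGF-β1 library lies outside the serum-free range, and only MYOCD overlaps. The 12 genes were picked for display. Over all genes tested, 33.9% did not overlap.

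Most genes differed between the conditions. Of the genes tested, 64.3% were called, 31.2% higher (4155 genes) and 33.1% lower (4408 genes) with TGF-β1, and for 33.9% the 8 libraries of each condition did not overlap (2306 higher, 2199 lower). A change of at least 2-fold was met by 1445 risen and 2025 fallen genes, at least 8-fold by 260 and 304, and at least 64-fold by 48 and 24. The median over all genes was -0.03. When libraries were scaled by their column totals the median moved to -0.17, and the calls were 3215 higher and 5368 lower, so that 37.5% of called genes were higher against 48.5% under TMM sizes. Changes smaller than that shift depend on the scaling. With column totals the count of risen or fallen members changed in 26 of the 48 gene lists, and the new counts are given below for lists in which either count moved by 2 or more. List counts below stand against 31.2% higher and 33.1% lower over all genes with TMM sizes. A share near these is no trait of a list. List counts with column totals stand instead against 3215 higher and 5368 lower of 13308 genes. Members named are mostly those of largest change, so separate ranges among them do not measure the list.

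Abundant genes rose more often and scarce genes fell more often. Among the 1097 genes with a mean under 1 CPM over the 16 libraries, 14.7% rose and 33% fell. In the 3710 genes from 1 to 10 CPM the shares were 20.6% and 42.5%. They were 35.1% and 30.0% for the 6673 genes from 10 to 100 CPM. Above 100 and up to 1000 CPM, 48.5% of 1737 genes rose and 25.4% fell, and of the 91 genes at 1000 CPM or more 50.5% rose and 27.5% fell. The median change went from -0.52 in the lowest of these classes to 0.34 in the highest, and the plot of change against level shows the same tilt. In all, 24.7% of the counts moved from one gene to another between the conditions.

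**Figure D2:**
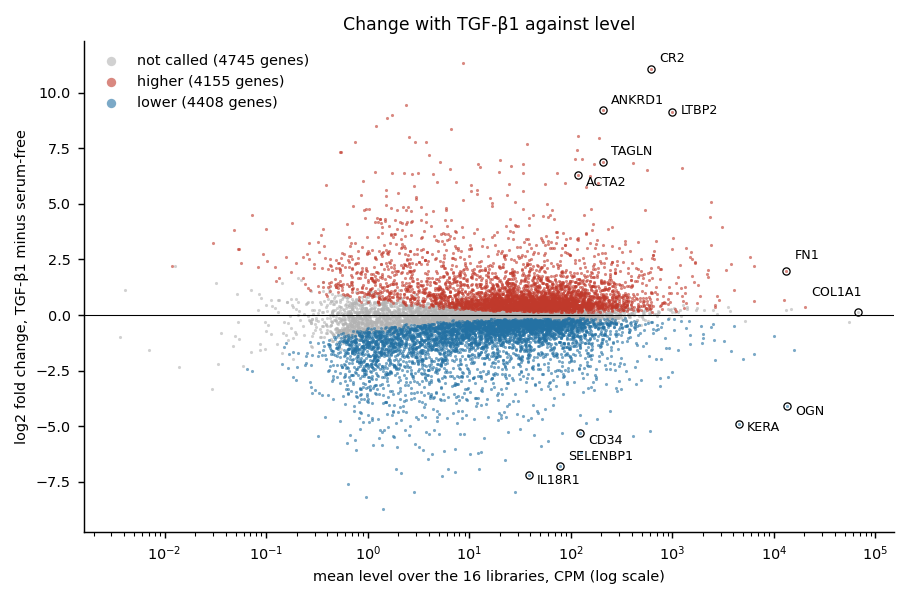
Log2 fold change of each of the 13308 genes (TGF-β1 minus serum-free) against its mean level over the 16 libraries (CPM, log scale), coloured by call; circles mark named genes. Blue points, lower with TGF-β1, prevail below 10 CPM, and red points, higher, prevail above 100 CPM.

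A few matrix genes carried much of this shift. Counted as shares of column totals, the 10 largest gains made 22.4% of all gained counts and the 10 largest losses 37.8% of all lost counts. FN1, the adhesive matrix protein fibronectin, gained most, from 3932 to 7101 CPM (median 5167) to 15898 to 26280.0 CPM (median 21375), and MMP2, gelatinase A, followed, from 1433 to 3113 CPM (median 2235) to 9983 to 11099 CPM (median 10671). Neither gene's ranges overlapped, and their changes were 2.00 ± 0.15 and 2.23 ± 0.19. THBS1, thrombospondin 1, an activator of latent TGF-β, rose from a median of 1669.8 to 9706 CPM, and the proteoglycan-like ASPN (asporin) from 214 to 4265 CPM. The largest losses were of OGN (osteoglycin), from 17350.0 to 39574 CPM (median 23929) to 1029 to 2639 CPM (median 1338), and DCN (decorin), from 20874 to 30691 CPM (median 21409) to 6536 to 10974 CPM (median 7579.5). All 3 collagen VI chains among the losers, COL6A1, COL6A2 and COL6A3, fell, by 1.63, 2.00 and 1.73 on the log2 scale, and GSN (gelsolin, an actin-severing protein) fell from 4003 to 1029.7 CPM in the median. The fibrillar chain COL1A1, the most abundant transcript with a symbol, was not called: it lay at 47912 to 74872 CPM (median 65073) and 61684 to 76034 CPM (median 71012), with overlapping ranges and adjusted p = 0.412. With TMM sizes it too stood among the 10 largest gains in mean CPM. Its log2 change of 0.14 was no larger than the shift between scalings given above, so that gain depends on the scaling. COL12A1, a collagen on fibril surfaces, overlapped as well (7895 to 16857 CPM (median 14076) and 9911 to 23321 CPM (median 16099), adjusted p = 0.281), and was called only with the replicate number as a block (adjusted p = 0.0369) or in replicates 1 to 4 alone (adjusted p = 1.42e-05).

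The steepest rises spanned genes of unlike function. CR2, complement receptor 2, known from B cells and follicular dendritic cells, went from 0 to 1.65 CPM (median 0.295) to 1046 to 1436 CPM (median 1276), a rise of 11.09 ± 0.49 (adjusted p = 1.82e-16). ANKRD1, a nuclear and sarcomeric ankyrin repeat protein, went from 0 to 2.31 CPM (median 0.636) to 245 to 656 CPM (median 374), and LRRC15, a surface protein of activated fibroblasts, from 0.427 to 4.12 CPM (median 0.85) to 310.5 to 442 CPM (median 377). No library of either condition lay in the range of the other for these 3 genes, which the choice of steepest rises required. P4HA3, a subunit of the prolyl hydroxylase that modifies procollagen, rose from a median of 1.25 to 224 CPM, RASGEF1C, a Ras exchange factor, from 0.307 to 71.2 CPM, and TM4SF18, a membrane protein, from 0 to 12.9 CPM. IBSP, bone sialoprotein, had 0 counts in all 8 serum-free libraries and 2127 over the TGF-β1 libraries, at least 843-fold higher taking 3 counts summed over the group as the floor. NGEF, a guanine nucleotide exchange factor, and IL21R, the interleukin-21 receptor, were also at 0 in serum-free medium, with 241 and 136 counts with TGF-β1 (at least 95.5-fold and 53.9-fold higher).

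The steepest falls likewise spanned genes of unlike function. IL18R1, the interleukin-18 receptor chain, went from 30.6 to 131 CPM (median 72.5) to 0.146 to 0.859 CPM (median 0.44), a fall of 7.22 ± 0.41 on the log2 scale (adjusted p = 3.04e-14). SELENBP1, a methanethiol oxidase, went from 123 to 189 CPM (median 162) to 0.975 to 2.54 CPM (median 1.14), and FBP1, the gluconeogenic enzyme fructose bisphosphatase, from 21 to 27.9 CPM (median 24.5) to 0.13 to 0.52 CPM (median 0.36). TRIL, a Toll-like receptor accessory protein, fell from a median of 45.9 to 0.425 CPM, FAM20A, a secreted pseudokinase of enamel formation, from 25.5 to 0.188 CPM, and MT3, a metallothionein, from 19.5 to 0.23 CPM. CNGA2, a cyclic nucleotide-gated channel subunit, fell from a median of 12.7 to 0.069 CPM. In each of these 7 genes every TGF-β1 library lay below every serum-free library, which was likewise a condition of their choice. SIDT1, a membrane protein linked to RNA transport, had 421 counts over the serum-free libraries and 0 with TGF-β1 (at least 118-fold lower), and KCNIP1, a potassium channel accessory protein, had 287 and 0 (at least 80.5-fold lower).

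Genes listed as ligands, latency proteins, activators or binders of TGF-β rose more often than they fell. Of the 15 tested, which include LTBP2 and the proteoglycans BGN, ASPN and DCN, 9 rose and 5 fell. Their median was 2.36 against -0.03 over all genes. TGFB1 itself, the ligand supplied in the medium, was at 10.2 to 17.2 CPM (median 14.5) and reached 62.7 to 126 CPM (median 92.6), a rise of 2.69 ± 0.18 (adjusted p = 6.82e-13). TGFB3, the third ligand, went from 87 to 154 CPM (median 131) to 529 to 799 CPM (median 674) (2.36 ± 0.21). TGFB2 moved the other way, from 123 to 190.3 CPM (median 169) to 82.4 to 156 CPM (median 110.1), and its ranges overlapped (-0.53 ± 0.19, adjusted p = 0.0182). LRRC32 (GARP), which displays latent TGF-β on the cell surface, rose from 38.9 to 69.9 CPM (median 55.1) to 364 to 401 CPM (median 378), and ITGAV, the αv integrin chain of the activating integrins, from 37.3 to 62.2 CPM (median 49) to 269 to 366 CPM (median 334). Their changes of 2.78 ± 0.18 and 2.76 ± 0.21 were close to that of TGFB1. ITGB8, a partner chain of αv, fell slightly, from a median of 64.7 to 43.7 CPM, and FURIN, the protease that cleaves the propeptide, rose from 80.4 to 133 CPM. Among the binding proteins only LTBP2 rose, as given above. LTBP1, which secretes latent TGF-β into the matrix, fell by 0.28 ± 0.07 on the log2 scale, from 1216 to 1427 CPM (median 1322) to 1020.0 to 1198 CPM (median 1082). LTBP4 fell by 2.03 ± 0.25, from 50.1 to 84 CPM (median 68.6) to 11.2 to 23.7 CPM (median 16.6). LTBP3 overlapped (-0.06 ± 0.13, adjusted p = 0.73). The small proteoglycans that bind TGF-β went both ways: BGN (biglycan) rose from 121 to 712 CPM (median 357) to 4653 to 6809 CPM (median 5721) while DCN fell, as given above.

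**Figure D3:**
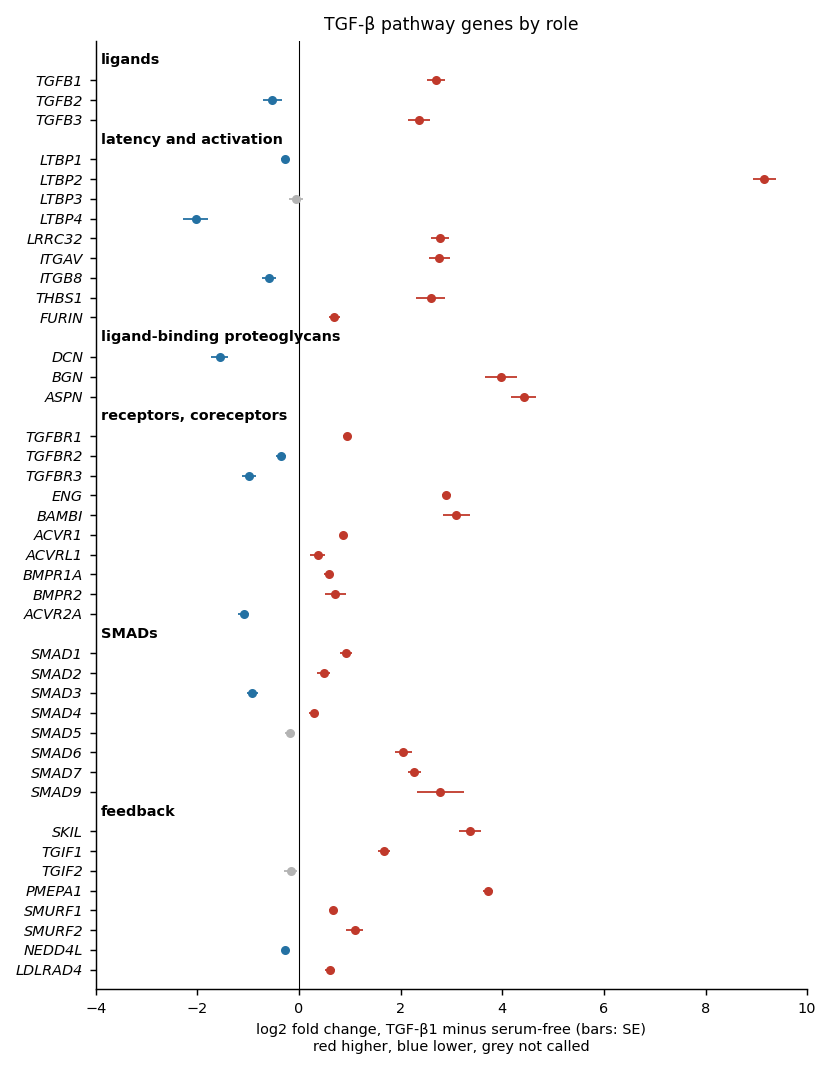
Log2 fold change (TGF-β1 minus serum-free, bars ± SE) of TGF-β pathway genes grouped by role, red for higher, blue for lower and grey for not called. LTBP2 stands farthest to the right at 9.16; SMAD3, TGFBR2, TGFBR3, LTBP4 and DCN are among those left of 0.

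Receptor transcripts changed less. Of 15 tested TGF-β and BMP receptors and coreceptors 9 rose and 5 fell, with a median of 0.36 (7 and 5, median 0.21, with column totals). TGFBR1, the type I kinase, rose from 122 to 151 CPM (median 135) to 246 to 290.3 CPM (median 262) (0.94 ± 0.08), and TGFBR2, the type II kinase, fell from 281 to 349.8 CPM (median 310.4) to 221 to 267 CPM (median 251) (-0.36 ± 0.10). Neither pair of ranges overlapped. The coreceptor betaglycan, TGFBR3, fell from 51.6 to 99.2 CPM (median 68.4) to 30.8 to 44 CPM (median 35.9), whereas endoglin, ENG, a coreceptor best known from endothelium, rose from 129 to 199 CPM (median 154) to 1087 to 1279 CPM (median 1157), by 2.90 ± 0.08 (adjusted p = 7.09e-20). BAMBI, a decoy receptor without a kinase, rose from 1.35 to 4.15 CPM (median 2.63) to 13.7 to 36.1 CPM (median 23.9). Among receptors of BMPs and activins, ACVR1 (70.5 to 131 CPM in the median), BMPR1A (209.5 to 315 CPM) and BMPR2 (80.9 to 124 CPM) rose and ACVR2A (61.5 to 31.6 CPM) fell. ACVRL1, the type I receptor that pairs with endoglin, went from a median of 136 to 159.7 CPM (0.36 ± 0.15, adjusted p = 0.0329); the call was lost with column totals (adjusted p = 0.216) and without any 1 of serum-free replicates 1, 2 and 4 or TGF-β1 replicates 1, 3 and 4 (adjusted p from 0.0625 to 0.082), and in replicates 5 to 8 alone it was lower (-0.21, adjusted p = 0.0257).

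Inhibitors of the pathway mostly rose, and SMAD3 fell. Of 16 SMADs, corepressors and feedback inhibitors tested, 12 rose and 2 fell, with a median of 0.79. The inhibitory SMAD7 went from 8.79 to 16.1 CPM (median 13) to 42.7 to 75.2 CPM (median 62.7), a rise of 2.27 ± 0.12 (adjusted p = 1.52e-14), and SMAD6, which curbs BMP receptors, from 2.93 to 8.94 CPM (median 4.66) to 19.2 to 26.7 CPM (median 21.1). SKIL, the corepressor SnoN, rose from 14.3 to 28.4 CPM (median 20.7) to 177 to 255 CPM (median 215) (3.36 ± 0.22). PMEPA1, which sequesters receptor-activated SMADs, rose from 8.96 to 13 CPM (median 9.64) to 102 to 157 CPM (median 135), the largest change of the list at 3.72 ± 0.10 (adjusted p = 6.36e-21). None of these 4 genes overlapped between conditions. TGIF1, a homeodomain corepressor, rose from a median of 20.9 to 66 CPM, SMURF2, a ubiquitin ligase of the receptors, from 63.6 to 137 CPM, SMURF1 from 45.7 to 71.3 CPM and LDLRAD4, a relative of PMEPA1, from 149.9 to 226 CPM. SMAD3, the transducer that binds DNA, fell from 94.8 to 152 CPM (median 129) to 54.8 to 77.7 CPM (median 65.6) (-0.92 ± 0.11, adjusted p = 2.46e-08) without overlap. SMAD2, its partner, rose with overlapping ranges (50.7 to 69.6 CPM in the median, 0.48 ± 0.14). SMAD4 rose by 0.29 ± 0.09, a call lost with column totals (adjusted p = 0.129) and in replicates 1 to 4 alone (adjusted p = 0.0846), and NEDD4L, another ubiquitin ligase, fell by 0.27 ± 0.06, a call lost in replicates 5 to 8 alone (adjusted p = 0.109). SMAD1, a transducer of BMP signals, rose from a median of 8.6 to 14.9 CPM, and SMAD5 was not called (-0.18 ± 0.10, adjusted p = 0.0969). SMAD5 was called lower with the replicate number as a block (adjusted p = 0.031), the library set as a covariate, column totals, upper-quartile scaling, the 16 libraries alone or replicates 5 to 8 alone (adjusted p from 0.00508 to 0.0366).

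Ligands of the BMP and activin branches were split. Of 21 tested ligands and secreted antagonists 11 rose and 7 fell, with a median of 0.47. GDF10, also named BMP3B, rose from 0 to 0.706 CPM (median 0.162) to 19.5 to 35.5 CPM (median 23.2) (6.82 ± 0.41), and the antagonist NOG (noggin), which binds BMPs outside the cell, rose from 0 to 2.74 CPM (median 0.812) to 9.88 to 19 CPM (median 13.7). GDF6 rose from a median of 0.196 to 4.29 CPM, and GDF5, a close relative in joint formation, fell from 1.6 to 8.32 CPM (median 4.79) to 0 to 0.657 CPM (median 0.122). The 8 libraries of each condition did not overlap for any of these 4 genes. BMP3, an antagonist-like member of the family, fell from a median of 245 to 46.8 CPM and the antagonist CHRD (chordin) from 438 to 194 CPM, while FSTL1, a follistatin-like glycoprotein, rose from 984 to 3370.1 CPM.

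Genes of the contractile machinery mostly rose, with exceptions among regulators and structural proteins. Of 14 tested actins and thin filament proteins 10 rose and 3 fell (median 0.82), of 22 myosins and regulators of contraction 17 rose and 3 fell (0.80; 15 and 3 with column totals), and of 32 focal adhesion and stress fibre adaptors 21 rose and 4 fell (0.81). TPM2, a tropomyosin that stabilises actin filaments, went from 13.3 to 26.3 CPM (median 20.5) to 141 to 334 CPM (median 198) (3.48 ± 0.20), and MYL9, the regulatory light chain of smooth muscle and non-muscle myosin, from 9.94 to 20.5 CPM (median 12.9) to 70.3 to 169 CPM (median 96.5) (3.01 ± 0.20). The non-muscle myosin heavy chains MYH9 and MYH10 rose from medians of 371 to 1128 CPM and 79.2 to 426 CPM, and RHOB, a small GTPase, from 87.7 to 679 CPM. At adhesions, PDLIM7, a LIM domain adaptor on actin, rose from 33 to 42.7 CPM (median 36.7) to 190.2 to 278 CPM (median 211), CSRP1, a cysteine-rich LIM protein, from a median of 79.4 to 278 CPM, and FHL2, a LIM-only cofactor, from 7.7 to 35.1 CPM. Enteric smooth muscle actin, ACTG2, rose from a median of 0 to 3.89 CPM, with the same doubt over shared reads as ACTA2, and cytoplasmic ACTB from 1385 to 2377 CPM. MYLK, the myosin light chain kinase that starts smooth muscle contraction, moved against this trend, from 0.566 to 5.25 CPM (median 3.46) to 0 to 0.358 CPM (median 0.184). It fell by 4.07 ± 0.43 on the log2 scale (adjusted p = 6.5e-09), with 448 counts over the 8 serum-free libraries and 22 over the 8 with TGF-β1, and no TGF-β1 library reached the lowest serum-free library. PDLIM3, a LIM adaptor of muscle, fell from a median of 1.6 to 0.25 CPM, PALLD (palladin, an actin crosslinker) from 232 to 111 CPM, and PPP1R14A, an inhibitor of myosin phosphatase, from 2.14 to 0.611 CPM.

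Smooth muscle and serum response regulators rose more often than they fell, but the smooth muscle master regulator did not. Of 21 tested factors 14 rose and 4 fell (median 0.54), or 10 and 5 with column totals. MKL1 (MRTF-A), the coactivator of serum response factor that responds to free actin, rose from 18.3 to 29 CPM (median 25.2) to 54.7 to 70.8 CPM (median 62.3). HIC1, a transcriptional repressor, rose from 0.313 to 1.41 CPM (median 0.757) to 7.29 to 12.1 CPM (median 9.62), ETS1, an ETS factor, from 0.573 to 2.8 CPM (median 1.73) to 17.4 to 23.9 CPM (median 20.5), and FOSL1, a subunit of AP-1, from a median of 3.4 to 13.4 CPM with overlapping ranges. MYOCD (myocardin) was scarce in both conditions, at 0 to 1.01 CPM (median 0.444) and 0 to 0.215 CPM (median 0.0613). It was called lower (-2.27 ± 0.74, adjusted p = 0.00923), but its ranges overlapped, and the call was lost on log2(FPKM + 1) values (adjusted p = 0.277) and in replicates 5 to 8 alone (adjusted p = 0.212).

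Nuclear lamins and intermediate filaments changed in both directions. Of 10 tested 4 rose and 5 fell. LMNB1, lamin B1 of the nuclear envelope, went from 47.7 to 84.9 CPM (median 68) to 4.42 to 9.24 CPM (median 6.07), a fall of 3.42 ± 0.16 (adjusted p = 9.02e-16), and SYNM, the large filament protein synemin, from 60.5 to 111 CPM (median 93.1) to 6.89 to 13.3 CPM (median 11.5). VIM (vimentin), the main filament of mesenchymal cells, rose from 1793 to 2532 CPM (median 2255) to 3011 to 4318 CPM (median 3508) (0.68 ± 0.10), and LMNA fell from a median of 899 to 542 CPM with overlapping ranges. Of 5 genes of caveolae, the flask-shaped pits of the plasma membrane, 3 rose and 2 fell (1 and 2 with column totals). PTRF (cavin 1) fell from 541 to 1227 CPM (median 895) to 196 to 305 CPM (median 262), whereas CAV2 rose from 1.51 to 2.62 CPM (median 1.77) to 5.51 to 13.7 CPM (median 8.71). CAV1, the scaffold of the pit, rose by only 0.43 ± 0.16, a call lost with column totals (adjusted p = 0.126) and in replicates 5 to 8 alone (adjusted p = 0.336).

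Every tested member of the list of markers of myofibroblasts and tumour stroma fibroblasts rose, 15 of 15, with a median of 2.31. Over all genes 31.2% rose. The list was chosen with earlier results of these data known, so this count describes only its members. ADAM12, a membrane metalloprotease, went from 7.22 to 17.2 CPM (median 11.6) to 857 to 1335 CPM (median 1140.3) (6.52 ± 0.22). NOX4, an oxidase that makes hydrogen peroxide, went from 7.31 to 17.2 CPM (median 9.67) to 79.7 to 148 CPM (median 108), MMP11 (stromelysin 3) from 3.06 to 11.6 CPM (median 5.69) to 56 to 92.6 CPM (median 66.9), and TNFSF4, the OX40 ligand, from 0.169 to 1.15 CPM (median 0.44) to 3.94 to 13.7 CPM (median 7.44). The ranges of these 4 genes were separate. FAP, fibroblast activation protein, rose less, from a median of 557 to 1314 CPM, and CDH11, a mesenchymal cadherin, from 634 to 1212 CPM. Targets of YAP and TEAD, which respond to cell tension, were more mixed: 11 of 20 rose and 5 fell, with a median of 0.28 (9 and 5, 0.14, with column totals). CTGF (CCN2), a matricellular protein, rose from 76.1 to 242 CPM (median 112) to 3606 to 5898 CPM (median 4482), and its relative CYR61 from 126 to 629 CPM (median 179) to 930.5 to 1676 CPM (median 1107).

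**Figure D4:**
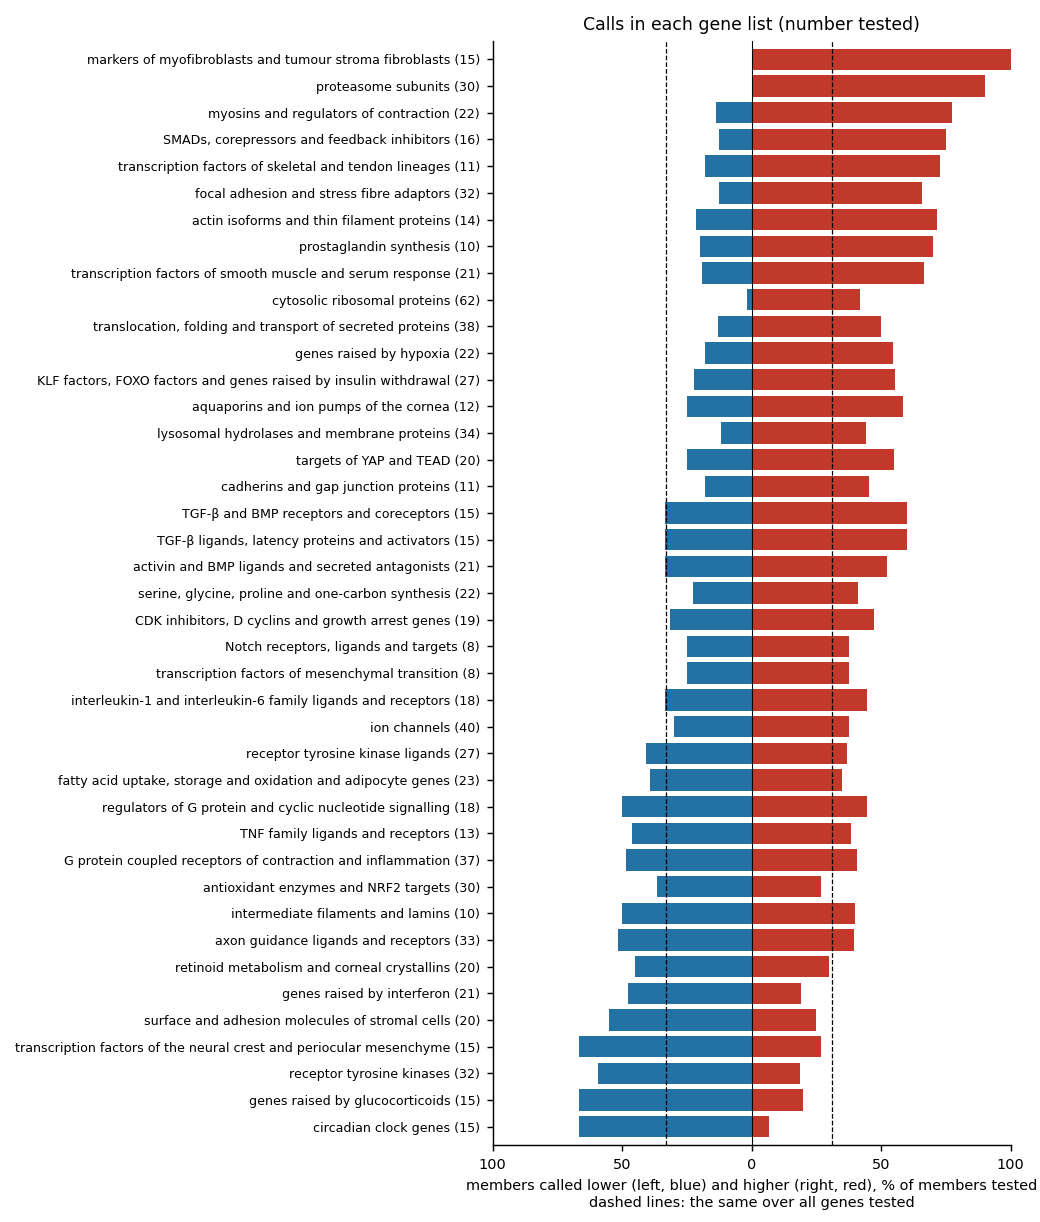
Share of members called higher (red, right) or lower (blue, left) in each gene list with at least 8 members tested, ordered by the difference, without the lists of markers of other cell types; the number tested is in brackets and dashed lines give the shares over all genes (31.2% higher, 33.1% lower). Myofibroblast and tumour stroma markers and proteasome subunits are at the top, and clock genes, genes raised by glucocorticoids and receptor tyrosine kinases are at the bottom. The lists were chosen with earlier results of these data known.

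Of 11 tested factors of skeletal and tendon lineages 8 rose and 2 fell (median 1.46). SOX9, the driver of cartilage, went from 7.94 to 16.5 CPM (median 12.3) to 93.2 to 136 CPM (median 119.9) (3.30 ± 0.16), RUNX1 from 10.2 to 18.2 CPM (median 13.2) to 122 to 146 CPM (median 128) (3.26 ± 0.11), and RUNX2, the driver of bone, the other way, from 67.3 to 85.2 CPM (median 71) to 27.2 to 36.2 CPM (median 31.6) (-1.21 ± 0.07). MSX2, a homeobox factor of bone and skin, rose from a median of 1.28 to 6.45 CPM and the paired-related PRRX2 from 33.7 to 186 CPM, while PRRX1 overlapped (-0.05 ± 0.12, adjusted p = 0.741). Factors of the neural crest and periocular mesenchyme, from which keratocytes derive, mostly fell: 10 of 15 fell and 4 rose (median -0.49). TBX2 went from 224 to 369 CPM (median 312) to 67 to 120.1 CPM (median 88.1) and EYA1 from 8.86 to 14.4 CPM (median 10.3) to 0.921 to 2.8 CPM (median 1.6). Their ranges were separate. FOXC1, a regulator of anterior eye development, rose from a median of 40.04 to 54.8 CPM (0.46 ± 0.07). Of 8 factors of mesenchymal transition 3 rose and 2 fell, among them SNAI1, a zinc finger repressor of E-cadherin, which rose from 4.43 to 20.7 CPM (median 13) to 24.3 to 54.6 CPM (median 38.5), and SNAI2, from 25.2 to 35.1 CPM (median 28.6) to 42.2 to 90.3 CPM (median 60.3).

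Circadian clock genes fell together. Of 15 tested 10 fell and 1 rose (12 and 1 with column totals), with a median of -0.72. HLF, an output factor of the clock, went from 119.8 to 223 CPM (median 153) to 15.3 to 25.7 CPM (median 16.7), a fall of 3.09 ± 0.18 (adjusted p = 6.03e-14), NR1D1 (REV-ERBα), a repressor in the loop, from 129 to 172 CPM (median 137) to 18.2 to 26.8 CPM (median 23.2) (-2.65 ± 0.09), and the period gene PER2 from 14.7 to 33.2 CPM (median 22) to 3.87 to 6.45 CPM (median 4.89) (-2.20 ± 0.16). CRY2, a repressor, and TEF, an output factor, fell from medians of 132 to 50.02 CPM and 215 to 89.5 CPM. NFIL3, the repressor that competes with HLF and TEF for their sites, was the gene that rose, from 4.23 to 10.7 CPM (median 6.64) to 14.8 to 28.6 CPM (median 24.4). The core activator CLOCK overlapped (-0.10 ± 0.08, adjusted p = 0.268). It was called lower with column totals (adjusted p = 0.0117), upper-quartile scaling (adjusted p = 0.031) or in replicates 1 to 4 alone (adjusted p = 0.0217).

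Genes that glucocorticoids raise mostly fell as well, 10 of 15, with 3 risen and a median of -0.95. SGK1, a kinase that regulates ion transport, went from 684 to 1008 CPM (median 726) to 76.7 to 111 CPM (median 91.9), a fall of 3.10 ± 0.10 (adjusted p = 4.02e-19). ZBTB16, a zinc finger repressor, went from 8.46 to 21.4 CPM (median 14) to 1.21 to 3.38 CPM (median 2.31), and GLUL, glutamine synthetase, from 204 to 478 CPM (median 359) to 59.2 to 81.1 CPM (median 78.2). The receptors fell too: the glucocorticoid receptor NR3C1 from 143 to 258 CPM (median 208) to 84.7 to 108 CPM (median 94.9), and the mineralocorticoid receptor NR3C2 from 74.9 to 123 CPM (median 102) to 13.9 to 23.3 CPM (median 17.3). In these 5 genes no TGF-β1 library reached the serum-free range. CEBPD, a leucine zipper factor, and FKBP5, a receptor chaperone, went the other way. CEBPD rose from a median of 6.51 to 44.1 CPM, and FKBP5 from 0.223 to 2.96 CPM with overlapping ranges. Of 27 KLF factors, FOXO factors and genes raised by insulin withdrawal 15 rose and 6 fell (13 and 7 with column totals). FBXO32 (atrogin-1), a ubiquitin ligase of muscle atrophy, rose from 14.8 to 41.8 CPM (median 30.2) to 367 to 487 CPM (median 435) (3.89 ± 0.18).

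Receptor tyrosine kinases mostly fell, whereas their ligands were split. Of 32 tested receptors 19 fell and 6 rose, with a median of -0.63. KDR, the VEGF receptor best known from endothelium, went from 231 to 354 CPM (median 311) to 43.5 to 109 CPM (median 70.9) (-2.06 ± 0.17, adjusted p = 7.29e-11). EPHA4, an ephrin receptor, went from 7.45 to 23.3 CPM (median 15.8) to 0.346 to 2.18 CPM (median 1.04), and NTRK3, the neurotrophin-3 receptor, from 1.29 to 4.33 CPM (median 2.66) to 0 to 0.336 CPM (median 0.217). Among abundant receptors, FGFR1 fell from a median of 749.9 to 321 CPM, PDGFRA from 488 to 239.7 CPM and EGFR from 274 to 109 CPM, while PDGFRB rose from 270.2 to 429 CPM and FGFR2 from 5.76 to 22.4 CPM. Of 27 ligands 10 rose and 11 fell. VEGFA, the ligand of KDR, moved against its receptor, from 41.3 to 118 CPM (median 76) to 499 to 604 CPM (median 557) (2.84 ± 0.21). HBEGF and NRG1, ligands of the EGF receptor family, rose from 0.225 to 1.59 CPM (median 1.16) to 10.4 to 16.7 CPM (median 13.4) and from 0.112 to 2.25 CPM (median 0.636) to 4.68 to 19.1 CPM (median 10.6). NTF3 (neurotrophin-3) fell from 4.89 to 8.84 CPM (median 6.88) to 0 to 0.846 CPM (median 0.36), as did its receptor. ANGPT1 fell from a median of 1.4 to 0.163 CPM, and FGF10 from 209 to 246 CPM (median 223) to 32.1 to 56.1 CPM (median 41.1).

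Cytokine and inflammatory genes were mixed. Of 18 tested interleukin-1 and interleukin-6 family genes 8 rose and 6 fell, where 31.2% and 33.1% of all genes did. LIF, a cytokine of the interleukin-6 family, went from 0.56 to 4.09 CPM (median 1.22) to 41.6 to 63.5 CPM (median 59.6) (5.08 ± 0.27), IL1RL2, the interleukin-36 receptor, from 0.412 to 3.44 CPM (median 0.837) to 31.7 to 59.99 CPM (median 46.9), and IL6 from a median of 0.117 to 2.44 CPM. IL1RL1, the interleukin-33 receptor, fell from 45.5 to 94.9 CPM (median 54.9) to 5.39 to 12 CPM (median 8.3), and the shared receptor chain IL6ST overlapped (adjusted p = 0.54). Among 13 TNF family genes, of which 5 rose and 6 fell, TNFRSF12A, the TWEAK receptor, rose from 1.22 to 10.2 CPM (median 4.81) to 79.6 to 139 CPM (median 124). The RANK receptor TNFRSF11A and its soluble decoy's gene TNFRSF11B changed oppositely, from medians of 70.7 to 12.5 CPM and 23.8 to 122 CPM. Of 21 genes raised by interferon 10 fell and 4 rose (12 and 4 with column totals), with a median of -0.69: MX1, an antiviral GTPase, went from 57.9 to 72.7 CPM (median 66.8) to 6.95 to 11.5 CPM (median 9.23) and OAS3, an RNA sensor, from 7.59 to 11.2 CPM (median 9.66) to 1.61 to 3.14 CPM (median 2.44).

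In prostaglandin synthesis, 7 of 10 tested genes rose and 2 fell (median 1.11). PTGS2, the inducible cyclooxygenase, went from 19.2 to 32.3 CPM (median 26.7) to 147 to 252 CPM (median 207), and PLA2G4A, which frees arachidonic acid, from a median of 125 to 332 CPM. PTGS1, the constitutive cyclooxygenase, fell from 39.5 to 69.6 CPM (median 50.8) to 8.35 to 22.6 CPM (median 13.5), and ALOX5, the lipoxygenase of leukotriene synthesis, from a median of 3.47 to 0.48 CPM. In the Notch pathway 3 of 8 rose and 2 fell, where 31.2% and 33.1% of all genes did. HES1, a repressor and Notch target, rose from 1.41 to 3.63 CPM (median 2.24) to 15.2 to 21 CPM (median 17.6), and LFNG, a sugar transferase acting on Notch, from a median of 0.199 to 2.94 CPM.

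G protein-coupled receptors and their effectors changed in both directions. Of 37 tested receptors of contraction and inflammation 15 rose and 18 fell. S1PR1, a sphingosine 1-phosphate receptor, went from 37.1 to 54.5 CPM (median 48.8) to 0.716 to 1.9 CPM (median 1.23), a fall of 5.25 ± 0.16 (adjusted p = 1.56e-19), and its relative S1PR3 from 145 to 256 CPM (median 199) to 27.7 to 47.8 CPM (median 36.2). BDKRB2, the bradykinin B2 receptor, fell from 5.05 to 9.58 CPM (median 7.29) to 0.26 to 1.73 CPM (median 0.761). PTGFR, the prostaglandin F receptor, rose from a median of 0.0549 to 6.26 CPM (10 counts over the 8 serum-free libraries and 790 over the 8 with TGF-β1). F2R, the thrombin receptor, rose from 39.1 to 95.3 CPM (median 65.4) to 286 to 374 CPM (median 323), and AGTR1, the angiotensin II receptor, from 8.37 to 18.3 CPM (median 13) to 45.3 to 76.6 CPM (median 55.8). Of 18 regulators of G protein and cyclic nucleotide signalling 8 rose and 9 fell. The phosphodiesterases PDE7B and PDE3A, which degrade cyclic AMP, fell from 19.5 to 30.2 CPM (median 26) to 1.04 to 1.96 CPM (median 1.6) and from 12.1 to 22.1 CPM (median 17.2) to 1.82 to 3.28 CPM (median 2.27), and NPR2, the C-type natriuretic peptide receptor, rose from a median of 150.4 to 374 CPM.

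Of 40 ion channels 15 rose and 12 fell (15 and 14 with column totals), shares near the 31.2% and 33.1% over all genes. KCNMB1, the smooth muscle subunit of the calcium-activated potassium channel, rose from 0.0568 to 0.61 CPM (median 0.13) to 6.96 to 24.8 CPM (median 12.4) (6.00 ± 0.42), and KCNMA1, its pore, from 0.0943 to 1.65 CPM (median 0.562) to 2.55 to 7.28 CPM (median 4.58). SCN9A, a sodium channel best known from pain neurons, fell from 335 to 705 CPM (median 533) to 26.3 to 78.7 CPM (median 45.9) (-3.44 ± 0.25), and CACNA1G, a T-type calcium channel, from 38.9 to 57.2 CPM (median 44.6) to 4.25 to 8.86 CPM (median 6.63). The 4 channels were separate between conditions. Of 12 aquaporins and ion pumps of the cornea 7 rose and 3 fell. AQP1, the water channel of stromal cells, rose from 309 to 830.5 CPM (median 533) to 1375 to 1722 CPM (median 1604), and the sodium pump subunit ATP1B3 from a median of 116 to 318 CPM. SLC4A4, a sodium bicarbonate cotransporter, fell from 241 to 552 CPM (median 397) to 45.4 to 156 CPM (median 82.1).

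Axon guidance genes fell more often than they rose, 17 against 13 of 33 (median -0.65), where 33.1% of all genes fell and 31.2% rose. SEMA5A, a semaphorin, went from 169.8 to 324 CPM (median 282) to 20.1 to 34.1 CPM (median 28.4) and SEMA3F from 174 to 225 CPM (median 187) to 20.1 to 28.5 CPM (median 22.8). SLIT3, a secreted repellent, fell from 1434 to 1944 CPM (median 1690.0) to 511 to 659 CPM (median 558). By contrast UNC5B, a netrin receptor, rose from 14.6 to 21.9 CPM (median 18) to 268 to 327 CPM (median 318) (4.09 ± 0.09, adjusted p = 9.91e-23), and NRP2, a coreceptor of semaphorins and VEGF, from 125 to 229.9 CPM (median 168) to 994 to 1271 CPM (median 1082).

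Surface molecules of stromal cells fell more often than they rose, 11 against 5 of 20 (median -0.95). CD34, a sialomucin of keratocytes and stromal progenitors, went from 223 to 265 CPM (median 235) to 4.68 to 6.8 CPM (median 6.21), a fall of 5.29 ± 0.09 (adjusted p = 1.3e-24), with little spread in either condition. BST1 (CD157), an ectoenzyme, went from 193 to 442 CPM (median 305) to 32.4 to 69.1 CPM (median 44.8). CD44, the hyaluronan receptor, rose from 26.5 to 45.2 CPM (median 33.9) to 257 to 378 CPM (median 318), and ICAM1, an adhesion receptor for leukocytes, from 3.82 to 20.7 CPM (median 10.2) to 81.3 to 213 CPM (median 158).

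Among groups of housekeeping genes most proteasome subunits rose. Of 30 tested proteasome subunits 27 rose, PSMA3, PSMC5 and PSMD13 being the 3 that were not called, with a median of 0.44, and PSMD14, the deubiquitinase of the lid, went from 19.2 to 28.5 CPM (median 22.6) to 36.7 to 53.8 CPM (median 43) (0.94 ± 0.09). With the replicate number as a block PSMA3 was called higher (adjusted p = 0.0227) and PSMC5 lower (adjusted p = 0.0265). PSMA3 was also called without serum-free replicate 2 or 3 or TGF-β1 replicate 6 or 8 (adjusted p from 0.026 to 0.0488), and PSMC5 without serum-free replicate 1 (adjusted p = 0.042). With column totals 20 subunits rose and 1 fell, and the median was 0.30. Of 62 cytosolic ribosomal proteins, which have many near-identical pseudogenes, 26 rose and 1 fell (median 0.37). The count of risen ribosomal proteins was 15 with column totals, where 3215 of all 13308 genes rose. It was 46, with 3 fallen, when the replicate number was a block, where 4626 of all genes rose and 4759 fell. RPS23, a small subunit protein, had the largest rise of the list (148 to 283 CPM in the median, with overlapping ranges). Genes for translocation, folding and transport of secreted proteins rose in 19 of 38 and fell in 5, but with column totals 13 rose and 11 fell. Among them LMAN1, a cargo receptor from the endoplasmic reticulum, rose from 85.1 to 142 CPM (median 109.8) to 178 to 226 CPM (median 197), and CREB3L1, a membrane-bound factor of the secretory stress response, fell from 132 to 168 CPM (median 157) to 54.8 to 85.9 CPM (median 69.9). In 34 lysosomal genes, of which 15 rose and 4 fell (13 and 6 with column totals), CTSK (cathepsin K, a collagenase) rose from 329 to 566 CPM (median 404) to 1877 to 2189.5 CPM (median 1953), NPC2, a cholesterol carrier, from 87.9 to 123 CPM (median 106) to 462 to 635 CPM (median 544), and LAPTM5, a lysosomal membrane protein of blood cells, from 2.6 to 6.27 CPM (median 3.77) to 243 to 359.7 CPM (median 313). LAPTM4B, of the same family, fell from 364 to 491 CPM (median 431) to 80.7 to 120.1 CPM (median 94.9).

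In serine, glycine, proline and one-carbon synthesis 9 of 22 rose and 5 fell. The serine hydroxymethyltransferases went opposite ways: the cytosolic SHMT1 fell from 92.3 to 109 CPM (median 100.5) to 2.86 to 5.74 CPM (median 3.45) (-4.70 ± 0.12, adjusted p = 6.36e-21), and the mitochondrial SHMT2 rose from 38.1 to 68.1 CPM (median 50.9) to 76.1 to 201 CPM (median 138) (1.44 ± 0.20). PSAT1, an enzyme of serine synthesis, rose from 34 to 44.2 CPM (median 38.3) to 67.9 to 192 CPM (median 131), and CBS, which draws serine into cysteine synthesis, fell from 8.15 to 16.9 CPM (median 10.9) to 0.496 to 1.5 CPM (median 0.776). Of 30 antioxidant genes 8 rose and 11 fell (7 and 14 with column totals), near the 31.2% and 33.1% over all genes. SEPP1, a secreted selenium carrier, fell from 206 to 291 CPM (median 246) to 19.2 to 27.3 CPM (median 20.8). Of 20 genes of retinoid metabolism and corneal crystallins 6 rose and 9 fell, where 31.2% and 33.1% of all genes did. CRABP2, a retinoic acid carrier, and RARB, a retinoic acid receptor and target, fell from 57.8 to 160.4 CPM (median 141) to 5.15 to 13.7 CPM (median 9.49) and from 5.51 to 12.4 CPM (median 7.25) to 0.438 to 0.85 CPM (median 0.612). TKT, transketolase, a crystallin of keratocytes, fell slightly (1573 to 1313 CPM in the median, -0.27 ± 0.08), with overlapping ranges. Of 22 genes raised by hypoxia 12 rose and 4 fell (10 and 5 with column totals). EGLN3, an oxygen-sensing hydroxylase, rose from 1.56 to 4.95 CPM (median 3.75) to 40.8 to 60.3 CPM (median 47.5), PFKFB3, an activator of glycolysis, from 14.3 to 19.9 CPM (median 15.8) to 169 to 200.2 CPM (median 178), and BHLHE40, a repressor, from 18.3 to 46.2 CPM (median 29.6) to 302 to 365 CPM (median 335). Of 23 genes of fatty acid uptake, storage and oxidation 8 rose and 9 fell (6 and 9 with column totals): FABP5, a fatty acid carrier, rose from 2.56 to 9.78 CPM (median 6.65) to 57.5 to 77 CPM (median 64.5), and PPARGC1A, a coactivator of mitochondrial genes, fell from 15.6 to 22.4 CPM (median 19.96) to 0.91 to 5.38 CPM (median 2.43). PDK4, a kinase that shuts pyruvate dehydrogenase, spread so widely between library sets that it was not called (adjusted p = 0.191), but it was lower with the replicate number as a block (adjusted p = 0.000636) and within each set.

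Brakes on the cell cycle changed in both directions. Of 19 CDK inhibitors, D cyclins and growth arrest genes 9 rose and 6 fell. CDKN2B (p15), a known target of TGF-β, went from 0 to 1.23 CPM (median 0.359) to 37.6 to 67.6 CPM (median 47.5) (6.70 ± 0.31, adjusted p = 6.16e-16), and CDKN1A (p21) from 49.4 to 204 CPM (median 117) to 959 to 1445 CPM (median 1277) (3.34 ± 0.23). CDKN1B (p27), the brake of resting cells, fell from 55.2 to 79.6 CPM (median 73.3) to 26.3 to 32.9 CPM (median 27.9) (-1.28 ± 0.09), and GAS1, a growth arrest gene, from 274 to 361 CPM (median 289) to 24.9 to 67.9 CPM (median 42.1). CDK6, a kinase that these inhibitors hold back, rose from 23 to 40.01 CPM (median 29.8) to 83.2 to 122 CPM (median 106).

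By protein domain, as the deposited table annotates families, 38 families had at least 25 tested genes, and some are given here as examples. Zinc finger genes with a KRAB repressor domain seldom rose. Of 138 tested 63 fell and 5 rose (median -0.34), although reads of these similar genes can be shared. Genes of the Ras GTPase family rose in 39 of 70 and fell in 10 (0.42), and ubiquitin-conjugating enzymes rose in 23 of 36 and fell in 6 (0.44). Ion transport channels fell in 19 of 34 and rose in 7 (-0.77). This annotated family is another set than the list of 40 ion channels above, in which 15 rose and 12 fell. With column totals the medians of these families were -0.47, 0.28, 0.31 and -0.91, of the same sign. Other families leaned as well, such as RhoGAP domain genes (24 of 43 fell, 8 rose) and dual specificity phosphatases (15 of 28 rose, 4 fell).

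Markers of other cell types differed widely in level. Of 14 corneal epithelial markers in the table only TP63 passed the filter for testing. It rose by 1.92 on the log2 scale, with separate ranges, but did not pass the filter with the 16 libraries alone. KRT12 and KRT13 were at 0 in all 16 libraries, and the markers summed to 0.618 to 2.14 CPM in serum-free medium and 1.06 to 4.55 with TGF-β1. Of 14 leukocyte markers 4 could be tested (1 rose, 1 fell), and their sum was 5.35 to 8.47 and 7.22 to 10.8 CPM. The marker that rose was CD68, from 1.4 to 3.75 CPM (median 2.04) to 5.1 to 7.89 CPM (median 6.81). The 14 striated muscle markers summed to 1.80 to 6.08 and 1.56 to 2.79 CPM, with MYOD1, MYOG, MYF5 and MYF6 at 0. Schwann cell and melanocyte markers (6 of 9 tested fell, 1 rose) summed to 29.9 to 57.6 and 15.7 to 29.4 CPM, with SOX10, the glial factor, going from 2.85 to 5.52 CPM (median 4.01) to 0.26 to 1.53 CPM (median 1.09). Vascular markers (5 of 9 fell, 3 rose) summed to 483 to 612 and 370.1 to 435 CPM, of which KDR, given above, fell. Corneal endothelial markers (5 of 9 rose, 4 fell, ZP4 at 0) summed to 1378 to 1817 and 2617 to 3586 CPM, most of it COL8A2, a network collagen, at 837 to 1197 CPM (median 1013) and 2285 to 3102 CPM (median 2533). The part of such cells in the results above was not tested.

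The size of the response differed between the sets of libraries for some genes. The set-by-treatment term, which tests whether the TGF-β1 change in replicates 5 to 8 differs from that in replicates 1 to 4, was called for 1368 genes, 10.3% of those tested. Some contractile genes differed in level between the sets within the TGF-β1 condition: ACTA2 lay at 268 to 403 CPM in replicates 1 to 4 and at 115 to 136 CPM in replicates 5 to 8, TPM2 at 233 to 334 CPM and 142 to 162 CPM, and MYL9 at 109.9 to 169 CPM and 70.3 to 83.2 CPM, whereas ACTG2 overlapped, at 3.71 to 6.66 CPM and 3.57 to 4.42 CPM. LTBP2 had the opposite order, with 1646 to 1870.0 CPM and 2124 to 2267 CPM, as had TGFB1, with 62.7 to 72.7 CPM and 112 to 126 CPM. Measured against the serum-free libraries of their own set, the changes of ACTA2 were 6.26 in replicates 1 to 4 and 6.39 in replicates 5 to 8, and the term was not called (adjusted p of the set-by-treatment term = 0.886). THBS1 did differ, with 3.21 in replicates 1 to 4 and 1.76 in replicates 5 to 8 (adjusted p of the set-by-treatment term = 9.39e-08), as did FLNC, filamin C, with 2.58 in replicates 1 to 4 and 0.83 in replicates 5 to 8 (adjusted p of the set-by-treatment term = 1.33e-07), and GSN, with -1.15 in replicates 1 to 4 and -2.72 in replicates 5 to 8 (adjusted p of the set-by-treatment term = 6.78e-10). CXCL12, a chemokine of stromal cells, rose in replicates 1 to 4 and fell in replicates 5 to 8 (2.46 in replicates 1 to 4 and -0.56 in replicates 5 to 8). Its serum-free level was 1.07 to 1.65 CPM in replicates 1 to 4 and 9.16 to 11.4 CPM in 5 to 8, whereas with TGF-β1 the sets lay together at 5.85 to 8.35 CPM (median 7.55). COL1A1 changed by -0.10 in replicates 1 to 4 and 0.40 in replicates 5 to 8 (adjusted p of the set-by-treatment term = 0.00439) and was called higher in replicates 5 to 8 alone (adjusted p = 0.00124). What the library numbers stand for was not tested, since no label says what they mark.

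**Figure D5:**
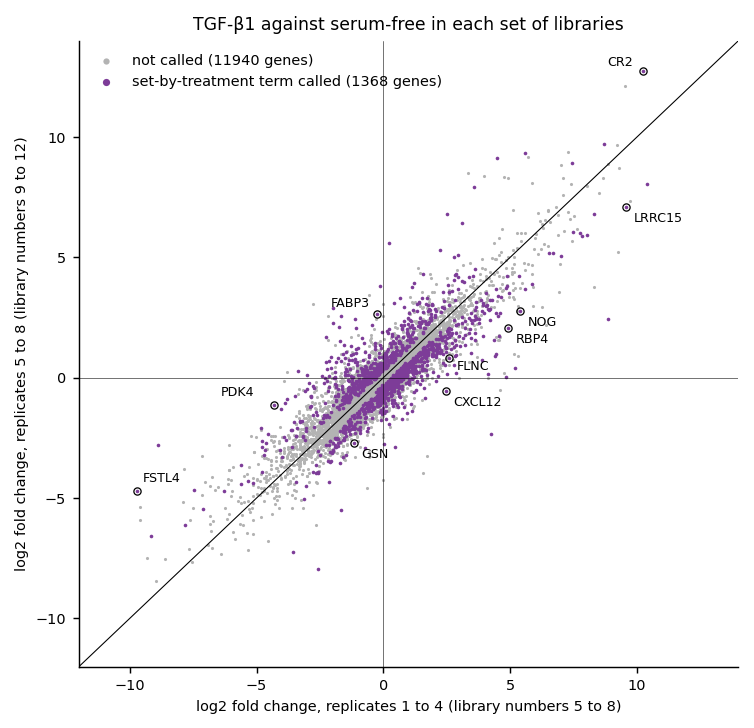
Log2 fold change of each gene in replicates 1 to 4 (horizontal) and in replicates 5 to 8 (vertical), with the diagonal of equal change; purple marks the 1368 genes called for the set-by-treatment term. Most genes lie along the diagonal, and CXCL12 lies on opposite sides of 0 in the 2 sets.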

How the data were processed

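Bulk RNA-seq was made from total RNA, and libraries were prepared by a commercial provider, per the labels. The deposited count table holds whole-number counts per gene and library, as its values show. The deposited FPKM table was scaled by the authors for gene length and library size. No source used here names the aligner, the counter, the build or the annotation.

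Counts were tested in edgeR 4.0.16 (TMM sizes, filterByExpr by condition, quasi-likelihood test over all 24 libraries, Benjamini-Hochberg over 13308 genes), with limma 3.58.1 and DESeq2 1.42.0 as alternatives. Some genes are not reported here. Symbols are the table's own; of 8020 genes listed by number 700 took a RefSeq symbol. Alternatives were column totals or upper-quartile scaling, DESeq2, no filter or at least 1 CPM in 8 libraries, the 16 compared libraries alone, limma on log2(FPKM + 1), the replicate number as a block, the library set as a covariate, each set alone, and each library left out. Members and the 48 gene lists (1220 genes, 901 tested) were chosen with earlier results of these data known.

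Named genes were drawn from 342 that a rule gave, and not all of these are named. The rule took the markers, the 12 steepest rises and falls, and the 10 largest gains and losses in CPM. It also took up to 4 called and 2 not called members of each list, TGF-β pathway members and the 6 most abundant genes not called. Up to 5 genes each way came from the set-by-treatment term and from 0 counts in a condition. A further 44 were chosen after their values were seen: ACTB, AGTR1, BMP3, CACNA1G, CAV1, CDK6, CDKN1B, CHRD, CRY2, EGFR, F2R, FAP, FGF10, FGFR1, FGFR2, FLNC, FOXC1, FSTL1, IL1RL1, KCNMA1, LMNA, MKL1, MYH9, NPR2, NR3C1, NR3C2, NRP2, PALLD, PDGFRA, PDGFRB, PLA2G4A, PPP1R14A, PTGS1, RUNX2, S1PR3, SCN9A, SEMA3F, SHMT2, SLIT3, TEF, TKT, TNFRSF11A, TNFRSF11B and VIM.

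Libraries of the same replicate number in the labels deviated together. The correlation of deviations from the condition means was 0.2 to 0.436 over the 8 numbers, and every correlation was over 0.1. By that criterion this was taken as pairing, which only the alternative with the replicate number as a block used. The main test fitted no block, so its SEs and p-values leave the pairing out. Only 6 of the 16 libraries were best matched by the library of their own number, and the part of the shared library set in these correlations was not tested. No 2 libraries of a condition agreed within sampling noise (closest pair, chi-square 3.35 per gene).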

Additional observations from a re-analysis of the deposited data

Results flagged for a closer look

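Library sets gave different responses for 1368 genes by the set-by-treatment term, and the genes with the largest terms are given here as the log2 change in replicates 5 to 8 minus that in replicates 1 to 4. The term was 4.99 for FSTL4, which had 0 counts in TGF-β1 replicates 1 to 4 and 0.26 to 0.576 CPM in 5 to 8, and 3.74 for AOAH, with 0 to 0.417 CPM (median 0.025) in serum-free medium; both terms depend on how 0 counts are fitted. For PDK4 it was 3.15, with 0.511 to 1.29 CPM and 99.2 to 122 CPM in the TGF-β1 libraries of the 2 sets. For NEBL, a nebulin relative, it was 3.14, with serum-free levels of 15.5 to 16.8 CPM and 1.46 to 2.94 CPM. FABP3, a fatty acid carrier, had 2.90, with serum-free levels of 26.6 to 53 CPM and 2.36 to 4.77 CPM. The term was -3.01 for CXCL12, -2.86 for RBP4 (retinol carrier), -2.65 for NOG, -2.49 for LRRC15 and -2.48 for MMP3 (stromelysin 1). Serum-free RBP4 lay at 0 to 0.899 CPM and 2.36 to 3.71 CPM, and serum-free MMP3 at 0 to 1.07 CPM and 2.29 to 17.9 CPM.

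Single libraries stood apart from the other 7 of their condition for 9 of 417 tested groups of values, where chance flags about 1 in 20 groups. TGF-β1 replicate 2 was lowest for TNFRSF12A (79.6 CPM, others 111.8 to 139.1) and UNC5B (267.7, others 303 to 326.6). The same library was highest for IL6ST (283.3, others 176.1 to 226.6), LAPTM4B (120.1, others 80.7 to 97.32) and PSMA3 (118.5, others 92.69 to 104.8). IL6 was highest in TGF-β1 replicate 1 (3.903, others 2.116 to 2.765). Among serum-free libraries IL1RL2 was highest in replicate 3 (3.439, others 0.4116 to 1.199) and RUNX2 in replicate 1 (85.25, others 67.27 to 75.21). NEBL was lowest in TGF-β1 replicate 4 (0.7296, others 1.913 to 2.969). The causes were not tested.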

How the results depend on the processing

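Counts of called genes stayed within 1.5 times their values under every alternative run: 3215 to 4626 genes higher and 4165 to 5368 lower over other scalings, filters, tools and sample subsets, and 4026 to 4174 and 4305 to 4421 when any of the 16 libraries was left out. The set-by-treatment term gave 1207 to 1726 genes under the other settings and 1069 to 1572 without any 1 library. Of 231 genes named, a count without COL1A2, 213 kept their call and direction under every alternative run for them, up to 27 each. Taking the replicate number as a block assumes a pairing that no label states. With this block 4626 genes were higher and 4759 lower, and of the genes named it changed the call of COL12A1, SMAD5, PDK4, PSMA3 and PSMC5 and no other. The block changed the count of risen or fallen members in 19 of 48 lists, by over 1.5 times for ribosomal proteins (26 to 46 risen, 1 to 3 fallen) and proteasome subunits (0 to 1 fallen). Replicates 5 to 8 alone gave -0.21 for ACVRL1, -0.55 for CXCL12 and 0.12 for NEBL, against 0.36, 0.36 and -2.05 over all libraries. Replicates 1 to 4 alone gave -0.10 for COL1A1, 0.14 for LTBP3, -0.26 for FABP3 and 1.65 for MMP3, against 0.14, -0.06, 0.31 and -0.56. For MMP3 the change was 0.042 on log2(FPKM + 1) values and ran from -0.757 to 0.0305 when 1 library was left out, the highest without serum-free replicate 6. The cause was not tested. TP63 was called in replicates 5 to 8 alone (3.10) but not in replicates 1 to 4 (0.43). Under 1 CPM, where counts are fewest, 47.7% of genes were called, against 78% at 1000 CPM or more; the part of depth in this was not tested.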
